A study of Mus musculus with 6 samples.

Results

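The histone genes of the mouse ovary were examined in RNA sequencing data of fetal ovaries exposed in culture to a reactive drug metabolite. Members were the rows of the gene table whose symbols start with H1f and a digit, H2ac, H2az, H2bc, H3c, H3f, H4c, H4f or the older Hist1h to Hist4h prefixes, with H2ax and names ending in -ps left out. This gave 74 of 21898 genes. By symbol, 61 of them were classed as replication-dependent histones, 6 as replacement variants (H1f0, H1f10, H2az1, H2az2, H3f3a and H3f3b) and 6 as germ-line histones. The symbol of 1 member, H4f16, fits none of these classes, and it was kept apart for that reason alone, although it holds the stem-loop described below.

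Wild-type (WT) ovaries were taken at 14.5 days post coitum and kept for 3 days in serum-free DMEM/F12 medium. Of the cultures, 3 libraries were made after addition of 15 µM NAPQI (N-acetyl-p-benzoquinone imine, an oxidising metabolite of the painkiller acetaminophen), and 3 after addition of the same volume of its solvent, ethyl acetate (control). Libraries were made from total RNA of whole ovaries, so fewer cells of a type and less RNA per cell cannot be told apart. Nothing states that the libraries of a group came from separate litters or cultures, and p-values then measure only how far these libraries scatter, which may be technical.

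Core histones H2A, H2B, H3 and H4 form the particle around which DNA is wound, and linker histone H1 binds the DNA that enters and leaves it. Replication-dependent histones are encoded by clustered genes without introns, are made in bulk during S phase, and their mRNAs end in a conserved stem-loop in place of a poly(A) tail. Stem-loop binding protein (Slbp) and the U7 small nuclear ribonucleoprotein direct this end. Replacement variants come from single genes outside the clusters, have ordinary polyadenylated mRNAs, and can be deposited throughout the cell cycle. In the ovary at 14.5 days post coitum, when the culture began, the somatic cells divide, while the female germ cells finish their last divisions and enter meiosis. The libraries were made after the 3 days of culture.

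The replication-dependent genes lie in 2 clusters. Per the deposited table (GRCm39), 51 of them stand on chromosome 13 between positions 21899933 and 23948389, and 10 on chromosome 3 between positions 96127181 and 96177448. To show the element that defines the class, the stem-loop was looked for after the stop codon, on the sense strand, in coding transcripts of an older annotation (GENCODE M21, build GRCm38) matched by gene identifier. The pattern searched was GG, any 3 bases, TTTT, any base, A, any 3 bases and CC, which is 16 letters long. All 74 members were matched. It was present in 40 of the 61 replication-dependent genes, in 0 of the 6 replacement variants, in 1 of the 6 germ-line genes (H1f6) and in H4f16. For comparison, 1.49% of 21901 coding genes held these letters anywhere in their longest coding transcript. The 6 sequences below are 30 bases each, written as DNA from 5′ to 3′ on the mRNA strand, and are all from genes on chromosome 13. Capitals mark the stem-loop and lower case the 7 bases on either side. They belong to genes described below and show 4 of the forms found.
H1f2: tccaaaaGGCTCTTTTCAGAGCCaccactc
H1f3: ctcaaacGGCTCTTTTCAGAGCCacccaca
H2ac6: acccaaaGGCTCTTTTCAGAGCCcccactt
H3c6: ccaaaacGGCTCTTTTAAGAGCCacctcca
H4c9: acttaaaGGCCCTTTTTAGGGCCaccacaa
H4c11: ccctaaaGGTCCTTTTCAGGACCaccacat

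The letters of H1f2 were the commonest and were shared by 24 members of the H1, H2A, H2B and H3 families. The letters seen in H3c6 were held by 6 members. H4 genes had other stems, with 7 members holding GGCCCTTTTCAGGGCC, 2 the letters of H4c9 and 2 the letters of H4c11. The poly(A) signal AATAAA stood in the last 50 bases of a coding transcript in 6 of the 6 replacement variants and in 10 of the 61 replication-dependent genes. Any coding transcript of a member counted, whereas the share over all coding genes, 59.2%, was read from the longest coding transcript alone. A match describes the letters only, and their absence from an annotated transcript says nothing of the true mRNA end.

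Counts per library were 14288452 to 16050342 in NAPQI ovaries and 13879347 to 17258609 in control ovaries. Germ cell and pregranulosa markers were present in both groups, with summed levels of 1664 to 2097 and 1894 to 2164 CPM (counts scaled to library size) in NAPQI ovaries and of 1704 to 1937 and 1926 to 2392 CPM in control ovaries. Of the 10 germ cell markers, Stra8 was too low to be tested, at 0.296 to 0.569 CPM over all libraries. Testis Sertoli markers summed to 15.9 to 23.8 CPM in NAPQI ovaries and 20.3 to 34.0 CPM in control ovaries. On the first principal component control replicate 3 was the most distant library, at 35.7 against -26.4 to 14.9 for the others, and it was the one whose deviations ran most strongly with gene length (Spearman -0.30 across genes, against -0.10 to 0.17 in the other libraries). Members are short genes. The median deposited length was 534 bases over the 61 replication-dependent genes, 1156 over the 13 of them that could be tested and 1916 over the 6 variants, against 4436 over all tested genes.

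Most histone reads came from the replacement variants. Summed over the 6 libraries, the 6 variants had 215454 reads, the 61 replication-dependent genes 5533, the germ-line genes 103 and H4f16 37. Per length, in the deposited FPKM (reads per kilobase of gene length, scaled by the counted reads of the library), the variants together exceeded the replication-dependent genes 15.1-, 16.5- and 23.5-fold in the NAPQI libraries and 15.6-, 18.4- and 14.7-fold in the control libraries. The sources used here do not say whether poly(A) RNA was selected. A filter on low counts left 19 members in the test, namely all 6 variants and 13 of the 61 replication-dependent genes. No reads at all were counted for 12 members in any library, 11 of them replication-dependent. With 0 reads in a library, up to 3 reads, or 0.175 to 0.222 CPM, remain possible from counting error alone.

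**Figure D1:**
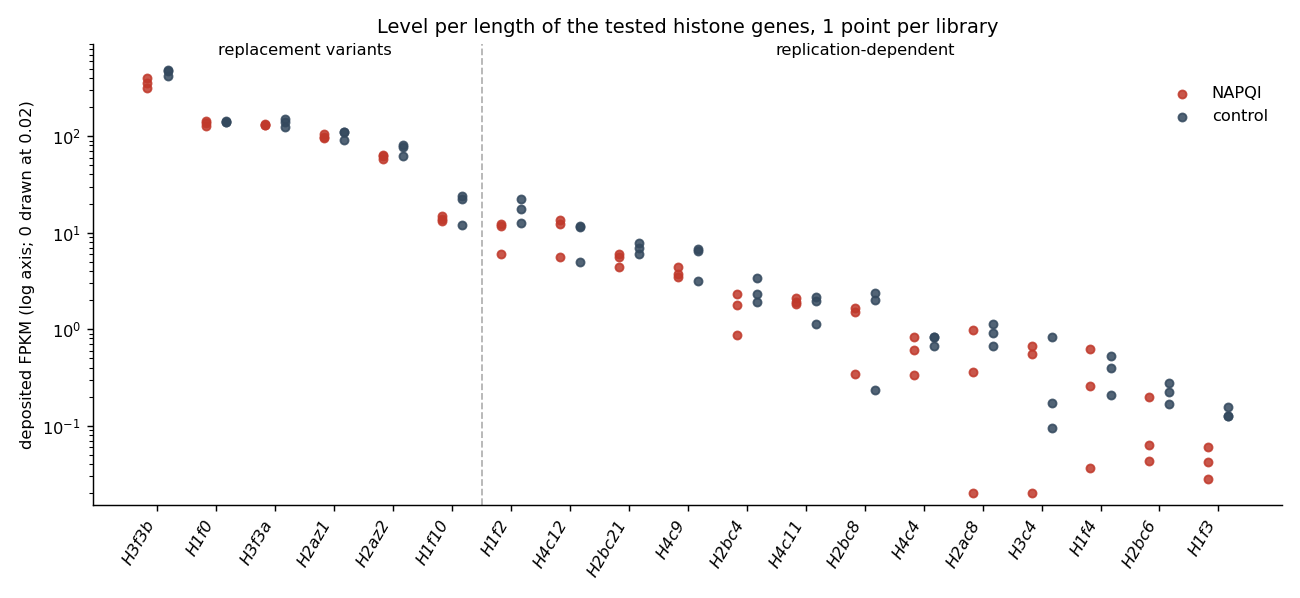
Deposited FPKM (log axis) of the 19 tested histone genes in each library, with NAPQI libraries left of control libraries for each gene. The variants H3f3b, H3f3a, H1f0 and H2az1 stand near or above 100 FPKM, H1f2 between 6.01 and 22.5 FPKM, and most replication-dependent genes below 3 FPKM.

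No tested histone gene was called different between NAPQI and control ovaries in the main test. In edgeR's quasi-likelihood test, 0 of 19 members had a Benjamini-Hochberg adjusted p under 0.05, where 0.0814% of 14736 tested genes did (0.0746% higher and 0.00679% lower in NAPQI ovaries). At an unadjusted p under 0.05 there were 6 members, all lower in NAPQI ovaries (H3f3b, H2az2, H1f10, H1f2, H1f3 and H2bc21). Among all tested genes 9.24% were past that limit, 5.03% lower and 4.21% higher. DESeq2's Wald test called 1 member, H3f3b, against 0.509% of all tested genes, while edgeR's exact test and limma-voom called 0. Fitted log2 fold changes, NAPQI over control, were negative for 16 of the 19 members, against 52.6% of all tested genes. That share is over genes of all lengths, whereas the 19 members have a median length of 1560 bases against 4436. Across all tested genes the log2 fold change rose with length (Spearman 0.216). With each library's trend on gene length removed, the values of H1f0 and H2az1 moved just above 0. For 4 members the libraries of NAPQI and control ovaries stood apart, each lower in NAPQI ovaries, where 7.13% of all tested genes were apart and lower and 7.26% apart and higher. Of the 19 members, 6 had a log2 fold change of 0.5 or more in size, against 7.84% of all tested genes. That share is not matched for count level. Among the 6, H2ac8, H1f3 and H2bc6 had only 45, 64 and 68 reads over all libraries, with SE of 0.76, 0.51 and 0.59. H1f3 is counted at the unadjusted p, among the negative members, among those apart and among those of 0.5 or more. H2bc6 and H4c4 are among the negative members, and H2bc6 is also among those of 0.5 or more. These 3 genes passed the low-count filter in all control libraries and not in all NAPQI libraries, so the counts lean to lower values.

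**Figure D2:**
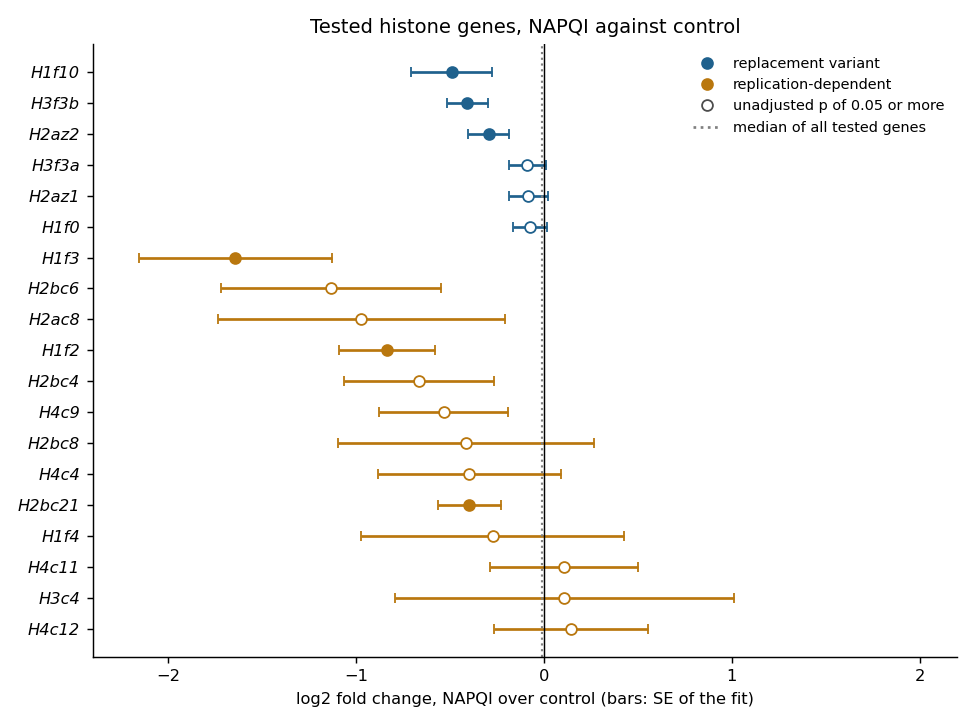
Log2 fold change, NAPQI over control, of the 19 tested histone genes with its standard error, with filled points for an unadjusted p under 0.05 in edgeR's quasi-likelihood test. All 6 variants lie at or left of -0.07 and 10 of the 13 replication-dependent genes are negative, while the dotted line marks the median of all tested genes at -0.01.

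Among the replacement variants, H3f3b, which encodes the replacement form of H3 together with H3f3a, was the most counted histone gene, with 53.5% of variant reads. It lies on the minus strand of chromosome 11 between positions 115912738 and 115918788. H3f3b had 1052, 1168 and 933 CPM in NAPQI ovaries, against 1458, 1265 and 1458 CPM in control ovaries. Each NAPQI library was below each control library. Its log2 fold change was -0.41 ± 0.11 (SE, n = 3 libraries each), with an adjusted p of 0.278 in edgeR's quasi-likelihood test and of 0.0289 in DESeq2's Wald test, and over all alternative settings the adjusted p ran from 0.0289 to 0.978. H3f3a encodes the same protein from chromosome 1. It had 453, 454.5 and 464.5 CPM in NAPQI ovaries and 431, 491 and 537 CPM in control ovaries, and the groups overlapped (log2 fold change -0.09 ± 0.10, edgeR adjusted p = 0.804).

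The H2A.Z proteins, which mark promoters and enhancers, are encoded by H2az1 and H2az2. H2az2 had 101, 93.0 and 101 CPM in NAPQI ovaries, against 101, 125 and 136 CPM in control ovaries. The highest NAPQI library stood just above the lowest control library, control replicate 1. The log2 fold change was -0.29 ± 0.11 with an unadjusted p of 0.019 and an edgeR adjusted p of 0.441. For H2az1 the levels were 170, 170 and 186 CPM in NAPQI ovaries and 160.5, 196 and 201 CPM in control ovaries, which overlapped (-0.08 ± 0.10, edgeR adjusted p = 0.828). Of the 50-base windows of its annotated transcript, 69.6% also occur in a transcript of another gene, so its reads can be divided or lost in counting.

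Both linker variants were detected. H1f10 had 16.8, 15.9 and 18.0 CPM in NAPQI ovaries, against 14.6, 27.1 and 29.6 CPM in control ovaries. Here control replicate 1 lay below all NAPQI libraries and the other control libraries lay above them. Its log2 fold change was -0.49 ± 0.22 (unadjusted p = 0.0416, edgeR adjusted p = 0.523), or -0.74 without control replicate 1 and -0.30 without control replicate 3. H1f0, the linker histone associated with differentiated and non-dividing cells, had 292, 257 and 278.5 CPM in NAPQI ovaries and 285, 295 and 292 CPM in control ovaries. These ranges overlapped (-0.07 ± 0.09, edgeR adjusted p = 0.822). With each library's trend on gene length removed, the log2 fold changes of H1f0 and H2az1 moved to the other side of 0, at 0.000604 and 0.00735.

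In order of level per length, H3f3b averaged 356 ± 39.5 FPKM in NAPQI ovaries and 463 ± 35.6 FPKM in control ovaries (SD, n = 3 each). H1f0 followed at 135.5 ± 8.28 and 140 ± 2.40 FPKM, and H3f3a at 132 ± 2.32 and 137 ± 13.4 FPKM, in NAPQI and control ovaries. These neighbours did not differ beyond their spread. H2az1 stood next at 99.7 ± 5.66 FPKM in NAPQI ovaries and 103 ± 11.4 FPKM in control ovaries. Below it were H2az2 at 60.8 ± 2.87 and 73.1 ± 10.1 FPKM and H1f10 at 14.0 ± 0.93 and 19.3 ± 6.38 FPKM, again for NAPQI and control ovaries.

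Reads of the replication-dependent class were concentrated in few genes. H1f2 held 36.5% of them and H2bc21 27.7%, while the 48 untested genes had 563 reads together and between 0 and 52 each over all 6 libraries. Of the 13 tested genes, H1f2, H2bc21, H2bc4, H4c9, H4c11 and H4c12 passed the low-count filter in all libraries of both groups. H1f3, H2bc6 and H4c4 passed it in all control libraries and not in all NAPQI libraries, so the choice of tested genes favours those with reads in control ovaries. Over all 61 genes, the mean level was lower in NAPQI ovaries for 32, higher for 18 and 0 in both groups for 11. Over the 48 untested genes alone it was lower for 22 and higher for 15, at a median of 7.5 reads. Among all tested genes 52.6% had a negative log2 fold change.

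Among the linker histones, H1f2 held most reads. It encodes a linker histone common in dividing cells and lies on the plus strand of chromosome 13 between positions 23922791 and 23924350. H1f2 had 18.3, 18.8 and 9.25 CPM in NAPQI ovaries, against 27.2, 19.9 and 36.0 CPM in control ovaries. The groups did not overlap, but the gap between NAPQI replicate 2 and control replicate 2 was narrow, and NAPQI replicate 3 and control replicate 3 were the extremes. Its log2 fold change was -0.84 ± 0.26 (unadjusted p = 0.00612, edgeR adjusted p = 0.357), and -0.58 without NAPQI replicate 3. H1f3 had 5, 7 and 3 reads in the NAPQI libraries and 20, 16 and 13 reads in the control libraries. At these depths that is 0.310, 0.443 and 0.207 CPM in NAPQI ovaries against 1.17, 0.932 and 0.961 CPM in control ovaries, without overlap. The log2 fold change of H1f3 was -1.64 ± 0.51 (unadjusted p = 0.00723, edgeR adjusted p = 0.372). For H1f4 there were 8, 19 and 1 reads in the NAPQI libraries and 13, 7 and 14 in the control libraries. These overlapped widely (-0.27 ± 0.70, edgeR adjusted p = 0.926), and the sign turned without NAPQI replicate 3 (0.23) or control replicate 3 (0.03). H1f4 and H2bc6 overlap on the same strand, so their reads cannot be told apart in the shared stretch.

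Among the H2B genes, H2bc21 was the most counted. It lies on the plus strand of chromosome 3 between positions 96128435 and 96131054, has no stem-loop letters but a poly(A) signal in the annotated transcript, and shares none of its 50-base windows with another gene. H2bc21 had 15.8, 14.5 and 11.4 CPM in NAPQI ovaries, against 20.5, 18.2 and 16.2 CPM in control ovaries. All NAPQI libraries were below all control libraries, with NAPQI replicate 1 close to control replicate 3. The log2 fold change was -0.40 ± 0.17 (unadjusted p = 0.0335, edgeR adjusted p = 0.502). H2bc4 had 16, 32 and 38 reads in the NAPQI libraries and 46, 67 and 31 in the control libraries, with overlap (-0.66 ± 0.40, edgeR adjusted p = 0.618), and its log2 fold change was -0.36 without NAPQI replicate 1 and -0.41 without control replicate 2. H2bc8 had 15, 16 and 3 reads in the NAPQI libraries and 21, 25 and 2 in the control libraries. Both groups held 1 library with very few reads of it, and its log2 fold change of -0.42 ± 0.68 (edgeR adjusted p = 0.876) turned sign without NAPQI replicate 3 (0.003) or control replicate 2 (0.01).

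H2A genes were close to the floor of detection. The 16 genes had 175 reads in all, 5 of them had none, and H2ac8 alone could be tested. H2ac8 had 11, 4 and 0 reads in the NAPQI libraries and 8, 11 and 11 in the control libraries (-0.97 ± 0.76, edgeR adjusted p = 0.70), and its log2 fold change was -2.21 without NAPQI replicate 1 and -0.43 without NAPQI replicate 3. H2ac6, which did not pass the filter, had 3, 0 and 0 reads in the NAPQI libraries, against 6, 20 and 9 in the control libraries. Its groups did not overlap. Of the 48 untested replication-dependent genes, 4 stood apart and lower in NAPQI ovaries and 1 apart and higher. The higher one was H2ac10, with 2 reads in each NAPQI library and 0 in each control library. Among all tested genes 7.13% were apart and lower and 7.26% apart and higher. No such share was taken over untested genes, and the untested members had only 0 to 52 reads each over all libraries. H2ac13 had 4, 5 and 0 reads in the NAPQI libraries and 3, 5 and 3 in the control libraries. Summed over the family, H2A reached 1.74, 0.886 and 0.553 CPM in NAPQI ovaries and 1.93, 2.80 and 3.25 CPM in control ovaries, from 8 to 28 reads a library in NAPQI ovaries and 33 to 48 in control ovaries.

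H3 genes of the class were as sparse, with 159 reads over 12 genes. H3c6 had 7, 13 and 6 reads in the NAPQI libraries and 2, 10 and 14 in the control libraries. H3c4 had 11, 13 and 0 reads in the NAPQI libraries and 2, 18 and 3 in the control libraries, and was the only tested H3 gene of the class. Its log2 fold change of 0.11 ± 0.90 (edgeR adjusted p = 0.981) had no stable sign: it was -0.28 in limma-voom and negative without NAPQI replicate 1 (-0.16), NAPQI replicate 2 (-0.41), control replicate 1 (-0.36) or control replicate 3 (-0.19). H3c10 had 5, 3 and 2 reads in the NAPQI libraries and 3, 2 and 3 in the control libraries. No order between the groups can be read from such counts.

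No tested H4 gene separated the groups. H4c9 had 3.17, 2.66 and 2.49 CPM in NAPQI ovaries, against 2.28, 4.72 and 5.10 CPM in control ovaries. Control replicate 1 lay below the NAPQI libraries and the other controls above them (-0.53 ± 0.34, edgeR adjusted p = 0.641), and its log2 fold change was -0.81 without control replicate 1 and -0.33 without control replicate 3. H4c12 had 3.85, 4.18 and 1.73 CPM in NAPQI ovaries and 3.56, 1.57 and 3.77 CPM in control ovaries, which overlapped (0.14 ± 0.41, edgeR adjusted p = 0.934). H4c11 had 1.61, 1.46 and 1.38 CPM in NAPQI ovaries and 1.52, 1.69 and 0.887 CPM in control ovaries (0.11 ± 0.40, edgeR adjusted p = 0.955). The signs of H4c12 and H4c11 turned when a library was left out, H4c12 without NAPQI replicate 2 (-0.08) or control replicate 2 (-0.17) and H4c11 without control replicate 3 (-0.11). Per length, H4c12 was second in the class at 10.5 ± 4.28 FPKM in NAPQI ovaries and 9.40 ± 3.8 FPKM in control ovaries, after H1f2 in control ovaries at 17.6 ± 4.90 FPKM and level with it in NAPQI ovaries at 9.99 ± 3.45 FPKM.

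Reads of the class differed by the annotated end of the transcript. In 18 replication-dependent genes the annotated transcript runs more than 100 bases past the stem-loop, as in H1f2, where it goes on for 840 bases. These genes had 3096 reads, 56.0% of the class, and 10 of them were tested. H1f2 alone had 2021 of these reads and the other 17 genes 1075. In 22 genes the transcript ends within 100 bases after the stem-loop, and these had 199 reads, 3.60% of the class, with 0 tested. The other 21 had no stem-loop letters in their annotated transcripts and held 2238 reads, of which H2bc21 alone had 1532. Per length the contrast was smaller, with median levels over all libraries of 0.342 FPKM for transcripts that run on, 0.13 FPKM for those that end near the stem-loop and 0.191 FPKM for those without its letters. Copies also resemble one another: the median replication-dependent gene shares 58.0% of its 50-base windows with another gene, 24.8% for the tested and 66.4% for the untested ones, against 11.2% for the variants. All 11 replication-dependent genes without a read share from 54.1% to 100% of their windows, and 5 of them share all. Levels of single clustered genes are therefore uncertain wherever the counting dropped or split reads that match several copies.

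**Figure D3:**
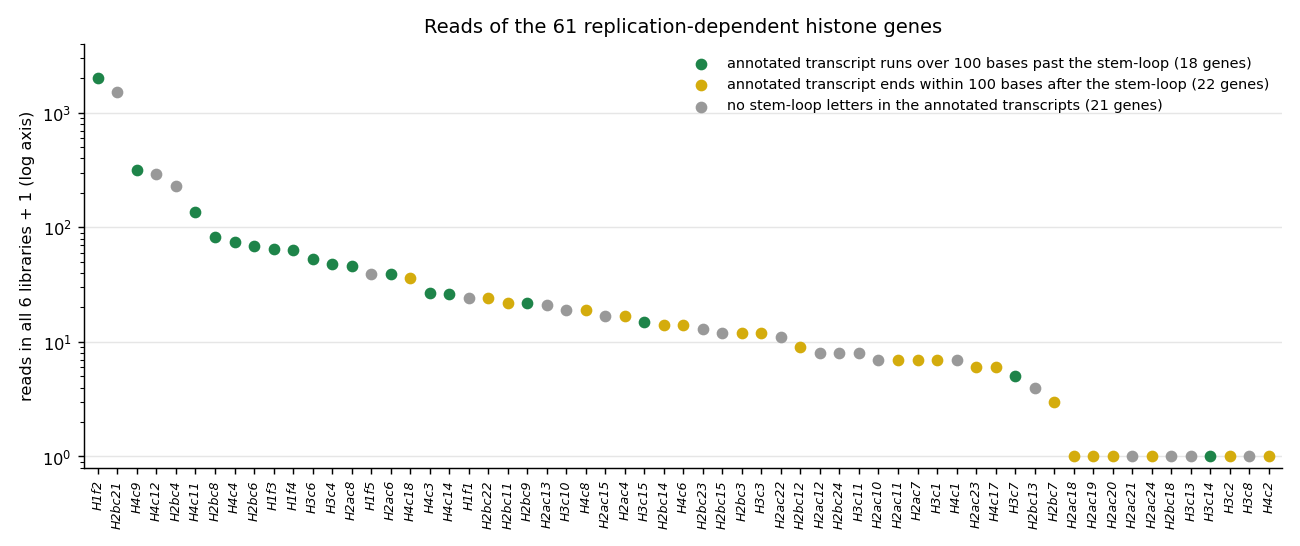
Reads over all 6 libraries, plus 1, on a log axis for the 61 replication-dependent histone genes, by how the annotated transcript ends relative to the stem-loop. Genes whose transcript ends within 100 bases after the stem-loop hold 199 reads together, against 3096 in those whose transcript runs on.

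As a class, replication-dependent histones summed to 54.9, 52.6 and 35.5 CPM in NAPQI ovaries and 69.6, 61.3 and 78.2 CPM in control ovaries. The groups did not overlap, and the means were 47.7 ± 10.6 and 69.7 ± 8.43 CPM (SD, n = 3 each), a ratio of 0.684. Without H1f2 and H2bc21 the means were 18.3 ± 3.10 CPM in NAPQI ovaries and 23.7 ± 2.13 CPM in control ovaries. Summed as FPKM, the class stood at 53.0, 49.9 and 32.9 in NAPQI ovaries and 58.8, 49.7 and 66.7 in control ovaries, and on that scale the groups overlapped. By family, the NAPQI to control ratio of summed CPM was 0.573 for H1, 0.398 for H2A, 0.743 for H2B, 1.14 for H3 and 0.862 for H4. The median log2 fold change over the 13 tested genes was -0.42, with a range from -1.64 to 0.14, beside -0.01 over all tested genes. H1f3, at the low end of that range, H2bc6 and H4c4 passed the low-count filter in all control libraries only, so this median leans to lower values. Without the filter it was -0.30 over 50 genes. The 13 tested genes are also shorter, with a median of 1156 bases against 4436 over all tested genes. The median over the 13 was -0.72 without NAPQI replicate 2 and -0.64 without NAPQI replicate 1. These sums and medians describe genes chosen with results of the data known and carry no test.

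Replacement variants summed to 2085, 2159 and 1981 CPM in NAPQI ovaries and 2451, 2398 and 2654 CPM in control ovaries. These did not overlap, with means of 2075 ± 89.4 and 2501 ± 135 CPM and a ratio of 0.83, and H3f3b gave most of the gap. All 6 variants had negative log2 fold changes with a median of -0.19. Per 100 variant reads, which needs no scaling between libraries, there were 2.63, 2.44 and 1.79 replication-dependent reads in NAPQI ovaries and 2.84, 2.56 and 2.95 in control ovaries. NAPQI replicate 1 exceeded control replicate 2, so the groups overlapped. The mean log2 ratio differed by -0.30 (NAPQI minus control) with a pooled SD of 0.22, and by -0.13 without NAPQI replicate 3. A difference between the classes was therefore not separated from the spread between libraries.

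**Figure D4:**
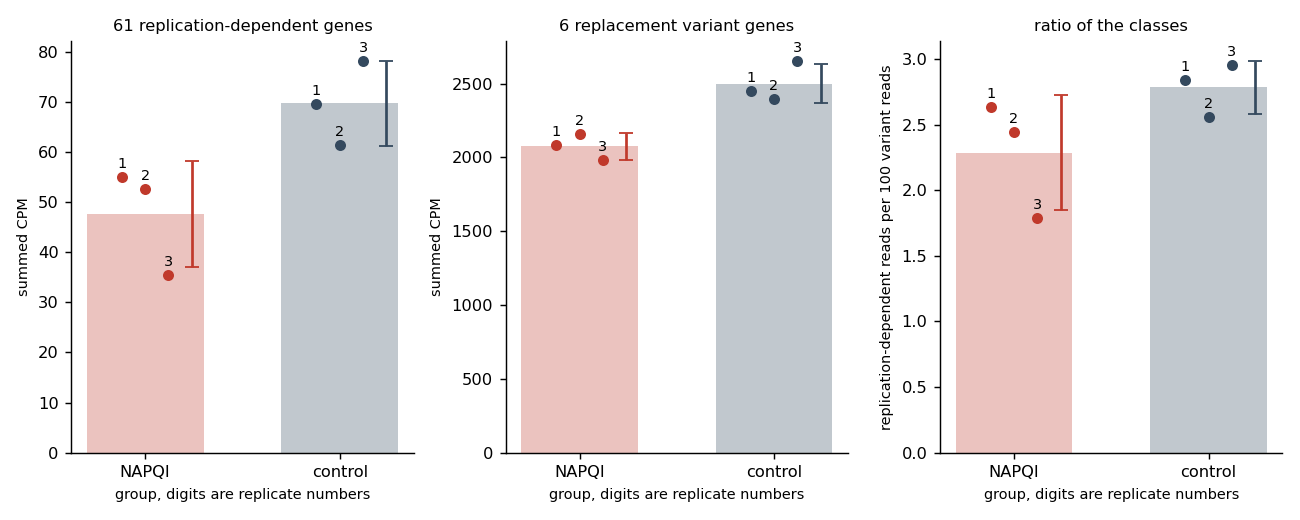
Summed level of the replication-dependent and of the variant histones in CPM and replication-dependent reads per 100 variant reads, with NAPQI left of control. Points are libraries, bars group means and error bars SD (n = 3 each). Both sums are lower in each NAPQI library than in each control library, whereas the ratio overlaps between the groups.

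Germ-line histones replace canonical ones in spermatogenic cells or oocytes. All 6 were below the filter, with sums of 0.949 to 1.45 CPM in NAPQI ovaries and 0.877 to 1.22 CPM in control ovaries. H1f8, the oocyte linker histone, had 8, 8 and 3 reads in the NAPQI libraries and 6, 6 and 2 in the control libraries. H2bc1, a testis H2B, had 7, 3 and 8 reads in the NAPQI libraries and 5, 9 and 9 in the control libraries. These 2 genes were picked after their values were seen. Neither separated the groups.

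Factors that make and finish histone mRNA did not pass the test either. Of 26 genes of histone mRNA transcription and 3′ end processing, 0 were called by edgeR or DESeq2 and 2 had an unadjusted p under 0.05, while 19 log2 fold changes were positive and 7 negative with a median of 0.06. For this list and those below, the shares over all tested genes were 9.24% at an unadjusted p under 0.05 in edgeR's quasi-likelihood test and 52.6% with a negative log2 fold change. Slbp, which binds the stem-loop, had 78.0, 81.2 and 80.1 CPM in NAPQI ovaries, against 80.3, 104 and 94.7 CPM in control ovaries. Its NAPQI libraries reached just above the lowest control library (-0.22 ± 0.10, edgeR adjusted p = 0.542). Casp8ap2, a factor of histone gene transcription and processing, averaged 69.2 ± 2.16 CPM in NAPQI ovaries and 58.4 ± 6.25 CPM in control ovaries without overlap (0.24 ± 0.10, edgeR adjusted p = 0.502). Srrt, which links the cap-binding complex to RNA processing, averaged 228 ± 14.5 and 267 ± 25.8 CPM in NAPQI and control ovaries (-0.23 ± 0.10, edgeR adjusted p = 0.52).

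Among 35 tested histone chaperones and deposition factors, 0 were called by either tool, 3 had an unadjusted p under 0.05, 15 log2 fold changes were positive and 20 negative, and the median was -0.02. Chaf1b, a subunit of the chaperone that loads new H3 and H4 behind the replication fork, averaged 15.1 ± 2.95 CPM in NAPQI ovaries and 20.2 ± 1.55 CPM in control ovaries, without overlap (-0.42 ± 0.17, edgeR adjusted p = 0.457). Znhit1, a subunit of the complex that deposits H2A.Z, averaged 30.05 ± 2.15 CPM in NAPQI ovaries and 37.05 ± 4.94 CPM in control ovaries, with overlap (-0.30 ± 0.13, edgeR adjusted p = 0.509).

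Of 40 S phase and replication genes, 0 were called by either tool, 2 had an unadjusted p under 0.05, 11 log2 fold changes were positive and 29 negative, and the median was -0.09. Mcm7, a subunit of the replicative helicase, averaged 92.6 ± 5.88 CPM in NAPQI ovaries and 108 ± 3.16 CPM in control ovaries (-0.22 ± 0.09, edgeR adjusted p = 0.457). Tyms, which makes thymidylate, averaged 22.3 ± 0.0569 CPM in NAPQI ovaries and 27.8 ± 3.43 CPM in control ovaries (-0.31 ± 0.13, edgeR adjusted p = 0.502). The groups did not overlap for either gene. Of 8 tested histone genes outside the rule, 0 were called by either tool, 0 had an unadjusted p under 0.05, 3 log2 fold changes were positive and 5 negative, and the median was -0.11. H2ax, the DNA damage variant, was at -0.24 ± 0.11 (edgeR adjusted p = 0.542) and H2aj at -0.25 ± 0.15 (edgeR adjusted p = 0.613), both with overlap. H2aw, picked after its values were seen, stood apart and higher in NAPQI ovaries (0.50 ± 0.325, edgeR adjusted p = 0.644).

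Markers of other cell types were set beside these values. The summed level of stromal markers was 2641 to 3769 CPM in NAPQI ovaries and 3629 to 4130 CPM in control ovaries, 7 of 8 had negative log2 fold changes, 4 with an unadjusted p under 0.05 and 0 called, and their median was -0.28. The groups overlapped for each of the 8 stromal markers. Macrophage markers summed to 74.5 to 86.7 CPM in NAPQI ovaries and 80.9 to 116.8 CPM in control ovaries, with 6 of 8 negative, 2 with an unadjusted p under 0.05 and a median of -0.29. Erythroid markers, highest in control replicate 3, summed to 22.5 to 74.3 CPM in NAPQI ovaries and 31.3 to 207 CPM in control ovaries, with 1 of 10 at 0 in all libraries. All 6 tested erythroid markers were negative, with a median of -0.98, and so were the 4 tested Sertoli markers, with a median of -0.45 and 1 at an unadjusted p under 0.05. The part of these cell types in the histone values was not tested.

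In the authors' deposited table of NAPQI against control, 62 members were listed and 0 had an adjusted p under 0.05, as 23 of 18591 genes (0.124%) did. Per the authors' deposited table, 6 members had an unadjusted p under 0.05, all lower in NAPQI ovaries, where 4.63% of its genes were past that limit and 2.29% past it and lower. In the authors' deposited table, the smallest of these were at H3f3b (p = 0.000329, adjusted p = 0.146) and H2ac6 (p = 0.0049, adjusted p = 0.549).

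The genes whose level across the 6 libraries was most like the summed replication-dependent class were Cxxc5, Tmem191c, Lmf2, Maged1 and Vstm4, with Pearson r of log2 CPM of 0.99 or more. Such likeness was common, since 8.48% of tested genes had r of 0.8 or more. These points share the groups and the depth of their libraries.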

How the data were processed

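Total RNA of 3 NAPQI and 3 control ovary libraries was analysed, grouped by sample title. The authors deposited whole-number read counts per gene without normalization, per the file headers. The deposited FPKM were recomputed from the count, the deposited gene length and the library's counted reads to within a relative difference of 1.49e-05. Per the submitters' processing notes FastQC 0.11.8, HISAT2 2.0.5, HTSeq 0.9.1 and GRCm39 were used; strandedness, poly(A) selection and the treatment of reads with several matches are not given in the sources used here. The authors' comparison table holds, per the file headers, a signal (mean normalised count), its fold ratio, the log2 of that ratio, and p-values.

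The members and lists were chosen with earlier results of these data known. Counts were fitted in R 4.3.3 with edgeR 4.0.16 over the whole table (filterByExpr, minimum count 10, about 0.631 CPM in 3 libraries; TMM; two-sided quasi-likelihood F-test; Benjamini-Hochberg over 14736 genes, threshold 0.05), and tested on simulated data. CPM use TMM-scaled library sizes. Errors are SE of the fit or SD over 3 libraries, and 3 libraries against 3 cannot give an exact two-sided p under 0.1. Named are the tested variants, the 3 most counted replication-dependent genes of each family, the 3 of that class with the smallest p in each direction, Slbp, and 2 genes with the smallest p of each list. Alternatives were other scalings, filters, DESeq2 1.42.0, limma 3.58.1 (voom), the exact test, the replicate number as a block, removal of the trend on length (lowess, span 0.3) and leaving out each library. Of 19 short RNAs made without a poly(A) tail, 0 were in the table, so that list gave no value. The endothelial markers' median log2 fold change was 0.02. Sequences were read from GENCODE M21 transcripts. Figures were drawn with matplotlib 3.10.9.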

Additional observations from a re-analysis of the deposited data

How the results depend on the processing

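The number of called members was 0 in every setting except DESeq2's Wald test, where it was 1 (H3f3b, adjusted p = 0.0289), and 0 without each library in turn. The median log2 fold change of the replication-dependent genes stayed negative, from -0.72 (without NAPQI replicate 2) to -0.30 (no low-count filter), and was -0.34 with the length trend removed. Leaving out libraries gave -0.72 to -0.36. That of the variants ran from -0.27 (without control replicate 1) to -0.13 (length trend removed), and from -0.27 to -0.13 over left-out libraries. The log2 ratio of replication-dependent to variant reads ran from -0.41 to -0.13 over left-out libraries and was -0.16 from FPKM. The labels state no pairing by replicate number. Correlations of deviations from the group mean were 0.06, -0.18 and -0.05 for same-numbered libraries and ran from -0.18 to 0.21 for differently numbered ones. Deviations of 3 libraries sum to 0 within a group, so these values cannot show whether samples were paired. With the replicate block 0 members were called, the medians were -0.44 and -0.18, and the log2 ratio was -0.30. Directions that turned were those of low genes or values near 0: H3c4 (-0.28 in limma-voom; left-out libraries -0.41 to 1.59), H1f0 (0.000604) and H2az1 (0.00735) with the length trend removed, H4c12 (left-out libraries -0.17 to 0.44), H1f4 (-1.29 to 0.23), H2bc8 (-0.88 to 0.01) and H4c11 (-0.11 to 0.28). A filter of 1 CPM left 13 members. Calls over all genes were 12, against 75 with DESeq2, 115 with the exact test, 48 without a filter, 1 with voom and 1 with the replicate block. Without 1 library they ran from 1 (without NAPQI replicate 1, NAPQI replicate 3 or control replicate 3) to 59 (without control replicate 2), with 23 when NAPQI replicate 2 and 18 when control replicate 1 was left out. The 48 untested replication-dependent genes had a median of 7.5 reads over all 6 libraries, which limits what can be said of each.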

Other observations

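Paralogous variants can be set against each other within a library, which needs no scaling. These ratios were chosen after the values were seen and carry no test. H3f3b had 2.32, 2.57 and 2.01 reads per H3f3a read in NAPQI ovaries, against 3.38, 2.58 and 2.71 in control ovaries. The groups did not overlap, but NAPQI replicate 2 and control replicate 2 nearly met. H2az2 had 0.593, 0.546 and 0.545 reads per H2az1 read in NAPQI ovaries, against 0.629, 0.641 and 0.676 in control ovaries, again without overlap. H1f10 had 0.0573, 0.0617 and 0.0647 reads per H1f0 read in NAPQI ovaries and 0.0512, 0.0921 and 0.102 in control ovaries, which overlapped. A ratio of this kind does not tell which of the paralogs differed. The paralogs also differ in length, and the libraries had unlike trends on length. Of the windows of H2az1, 69.6% are shared with another gene, so its reads can be divided or lost in counting. Whether the paralogs changed unequally was not tested.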
